A study of Mus musculus with 2 samples.

Results

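The genes described here are the hypoxia-inducible factor (HIF) subunits Hif1a, Epas1 and Arnt, the oxygen-sensing hydroxylases Egln1, Egln2 and Egln3, the ubiquitin ligase subunit Vhl, and the hypoxia target genes Bnip3, Vegfa and Ndrg1. They were chosen by symbol, and all 10 were found among the 22060 genes of the deposited count table. The T403A library came from bone marrow-derived macrophages of mice with the T403A substitution in STAT2, which carries signals from the interferon receptors to the nucleus, and the WT library from wild-type macrophages. Both were labelled C57BL/6, taken at 8 weeks of age, grown for 7 days in M-CSF, the growth factor that turns marrow progenitors into macrophages, and left untreated (0 h). There was 1 library per genotype. The sources used here do not give the number of animals behind each library or whether T403A is carried in the germline.

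In cells with ample oxygen, the EGLN enzymes hydroxylate prolines of the HIF alpha subunits, and VHL, as the substrate receptor of a cullin ubiquitin ligase, then marks the alpha subunit for degradation. When oxygen is short the alpha subunit persists, pairs with ARNT and binds hypoxia response elements near its target genes. Macrophages use HIF1A to sustain glycolysis and inflammatory cytokine production, and HIF activity is set largely by protein stability, which read counts do not measure.

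Because each genotype was 1 library, no difference has a replicate check and no p-value is given. Every value below compares these libraries, not the genotypes. The total was 18658381 counts in the T403A library and 16033032 in the WT library. Levels are CPM after TMM scaling, and where different genes are compared, CPM per kilobase of the deposited gene length. Each ratio is T403A over WT with an exact 95% interval that covers counting error only. A gene was called higher or lower when the ratio reached 1.5-fold and the interval excluded 1. Stat2 itself was at 84.4 CPM in T403A and 376 CPM in WT, 4.46-fold lower (4.22 to 4.71). A change of 1 amino acid need not alter a read count, so this does not check the labels. Of 7 macrophage markers all were detected in both libraries, with a summed level of 38344 CPM in T403A and 48486 CPM in WT. Lyz2 made up most of both sums, at 29804 CPM in T403A and 36620 CPM in WT. Of the 7 markers, 3 were called lower and none higher. Over all genes whose counts summed to 20 or more, 10.8% were lower and 13.5% higher. Fcgr1, an Fc receptor gene that interferon also induces, was 8.76-fold lower and Itgam 2.04-fold lower, and the third was Adgre1. Csf1r (ratio 0.77), Lyz2 (0.81), Mertk (0.69) and Cd68 (1.25) were not called. Lymphocyte markers summed to 0.301 CPM in T403A and 0.200 CPM in WT, and erythroid markers had 10 counts in T403A and 6 in WT. Neutrophil markers summed to 8.07 CPM in T403A and 7.07 CPM in WT, and stromal markers to 3.71 and 5.13 CPM in the same order. These sums hide differences of single genes. Of 4 neutrophil markers with enough counts, S100a9 was called higher (77 counts in T403A, 28 in WT) and Camp lower (10 and 22). Of 3 such stromal markers, Pdgfrb was called lower (15 counts in T403A, 41 in WT). Fewer cells of a type and less RNA per cell cannot be told apart in bulk RNA.

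Of the 10 genes, 6 were lower in T403A (Hif1a, Egln1, Egln3, Vhl, Bnip3 and Vegfa), 2 were higher (Epas1 and Ndrg1) and 2 met neither condition (Arnt and Egln2). All 10 were among the 11199 measured genes, those whose counts summed to 20 or more, of which 10.8% were called lower, 13.5% higher and 24.4% either way. The median log2 ratio of the 10 genes was -0.81, against 0.01 over all measured genes. At a 2-fold limit, 4 of the 10 were lower and 2 higher, where 6.08% of all measured genes were lower, 7.21% higher and 13.3% either way. By level per kilobase, Vegfa and Hif1a came first in both libraries, Egln3 last in T403A and Epas1 last in WT. Neighbours whose counting intervals overlapped were Ndrg1 with Arnt and Arnt with Vhl in T403A, and Bnip3 with Egln2 in WT. The genes were picked with earlier results of these data known, so these shares describe the set and test nothing.

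The promoters of Bnip3 and of the 3 EGLN genes are shown because they belong to the same pathway, hold the core of the hypoxia response element in differing number, and the genes differed unequally between the libraries. They are RefSeq windows on GRCm38.p6, from 250 bases before to 50 after the annotated start, written 5′ to 3′ on the gene's strand. Capitals mark ACGTG or GCGTG on either strand (on the minus strand read as CACGT or CACGC). The window of Bnip3 is chr7:138909457-138909756 (minus strand), that of Egln1 chr8:124949205-124949504 (minus), that of Egln2 chr7:27166753-27167052 (minus) and that of Egln3 chr12:54203825-54204124 (minus).
Bnip3 promoter: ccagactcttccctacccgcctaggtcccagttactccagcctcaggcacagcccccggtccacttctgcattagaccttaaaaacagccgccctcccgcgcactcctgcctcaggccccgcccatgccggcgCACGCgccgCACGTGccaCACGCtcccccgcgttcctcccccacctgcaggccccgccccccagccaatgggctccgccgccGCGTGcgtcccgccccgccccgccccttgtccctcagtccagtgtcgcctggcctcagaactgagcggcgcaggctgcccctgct
Egln1 promoter: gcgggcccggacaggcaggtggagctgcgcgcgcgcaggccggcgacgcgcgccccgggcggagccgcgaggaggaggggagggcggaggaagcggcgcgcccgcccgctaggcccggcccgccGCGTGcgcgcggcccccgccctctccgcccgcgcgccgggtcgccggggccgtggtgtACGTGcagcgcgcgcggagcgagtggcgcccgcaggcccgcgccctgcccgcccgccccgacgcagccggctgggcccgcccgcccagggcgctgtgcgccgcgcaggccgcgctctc
Egln2 promoter: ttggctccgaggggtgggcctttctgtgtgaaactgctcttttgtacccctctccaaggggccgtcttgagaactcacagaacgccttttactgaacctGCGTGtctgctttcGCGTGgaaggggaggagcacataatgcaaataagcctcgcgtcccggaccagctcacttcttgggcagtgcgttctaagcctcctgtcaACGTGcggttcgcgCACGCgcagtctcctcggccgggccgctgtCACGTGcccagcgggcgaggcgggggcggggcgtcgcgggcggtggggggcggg
Egln3 promoter: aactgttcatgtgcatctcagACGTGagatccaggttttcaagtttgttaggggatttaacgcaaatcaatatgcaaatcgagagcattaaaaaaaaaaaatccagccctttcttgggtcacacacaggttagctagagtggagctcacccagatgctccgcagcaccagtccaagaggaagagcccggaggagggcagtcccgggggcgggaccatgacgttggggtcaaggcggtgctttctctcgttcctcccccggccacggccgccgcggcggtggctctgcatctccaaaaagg
Egln2 held 6 core matches in 5 separate stretches, Bnip3 5 matches in 4 stretches, Egln1 2 matches and Egln3 1 match, where CACGTG counts as 1 match on each strand. Of the 10 genes, 8 had a window in the table (not Epas1 and Ndrg1), and 6 of these 8 first windows held at least 1 core. The share was 43.8% among all 32851 windows given and 64.1% among the first windows of 8938 measured genes. Of the 4 genes shown, Egln2 had 6 matches and a ratio of 0.97, and Bnip3 5 matches and a ratio of 0.23. Egln1 had 2 matches and a ratio of 0.51, and Egln3 1 match and a ratio of 0.18. Whether core number relates to the ratios was not tested, and sequence outside these windows was not searched. The first windows of Vhl and Vegfa held no such core, while that of Hif1a held 3 matches and that of Arnt 1. A second window was given for Vegfa (chr17:46025114-46025413), with 2 matches, and for Egln2 (chr7:27165679-27165978), with 1. Both second windows lie inside the annotated span of their gene.

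The alpha subunits differed in opposite directions, and after TMM scaling their shared partner was at a like level in both libraries. Hif1a (ENSMUSG00000021109, chromosome 12, 73901375 to 73947530, plus strand, GRCm38) encodes the alpha subunit present in most cells. It had 2758 counts, or 138 CPM, in T403A and 5486 counts, or 366 CPM, in WT, which is 2.64-fold lower (2.53 to 2.77). Only 450 of the 11199 measured genes had a lower ratio. Epas1 (ENSMUSG00000024140, chromosome 17, 86753700 to 86833410, plus strand) encodes HIF2A, the alpha subunit best known from endothelium, kidney and lung and also found in macrophages. It had 265 counts (13.3 CPM) in T403A and 86 counts (5.73 CPM) in WT, 2.32-fold higher (1.81 to 2.99). Arnt (ENSMUSG00000015522, chromosome 3, 95434388 to 95497240, plus strand), the constitutive beta subunit, had 1619 counts (81.2 CPM) in T403A and 1211 counts (80.7 CPM) in WT, a ratio of 1.01 (0.93 to 1.08).

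The balance between the alpha subunits can be read within each library, where library scaling cancels. Per kilobase, Epas1 made up 9.20% of the alpha subunit level in T403A and 1.63% in WT. Hif1a thus stood 9.87-fold above Epas1 in T403A and 60.5-fold above it in WT, and the Epas1 to Hif1a ratio was 6.13-fold higher in T403A (4.77 to 7.94). Hif1a stayed the more abundant transcript in both libraries. Relative to Arnt, Hif1a was 2.31-fold more abundant per kilobase in T403A and 6.15-fold in WT. The summed alpha level was 25.8 CPM per kilobase in T403A and 63.0 in WT, 2.44-fold lower.

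Epas1 is also an endothelial gene, and endothelial markers did not move in one direction. Of 6 listed, 3 were measured: Pecam1 had 2 counts in T403A and 40 in WT, and Kdr 70 counts in T403A and 162 in WT, both called lower. Vwf was at 222 CPM in T403A and 61.0 CPM in WT, 3.64-fold higher, and made up most of the summed endothelial level of 226 CPM in T403A and 75.5 CPM in WT. Emcn had no count in either library. Cdh5 had 0 counts in T403A and 16 in WT, and Tek 1 count in T403A and 0 in WT. The part of such cells in the Epas1 difference was not tested.

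**Figure D1:**
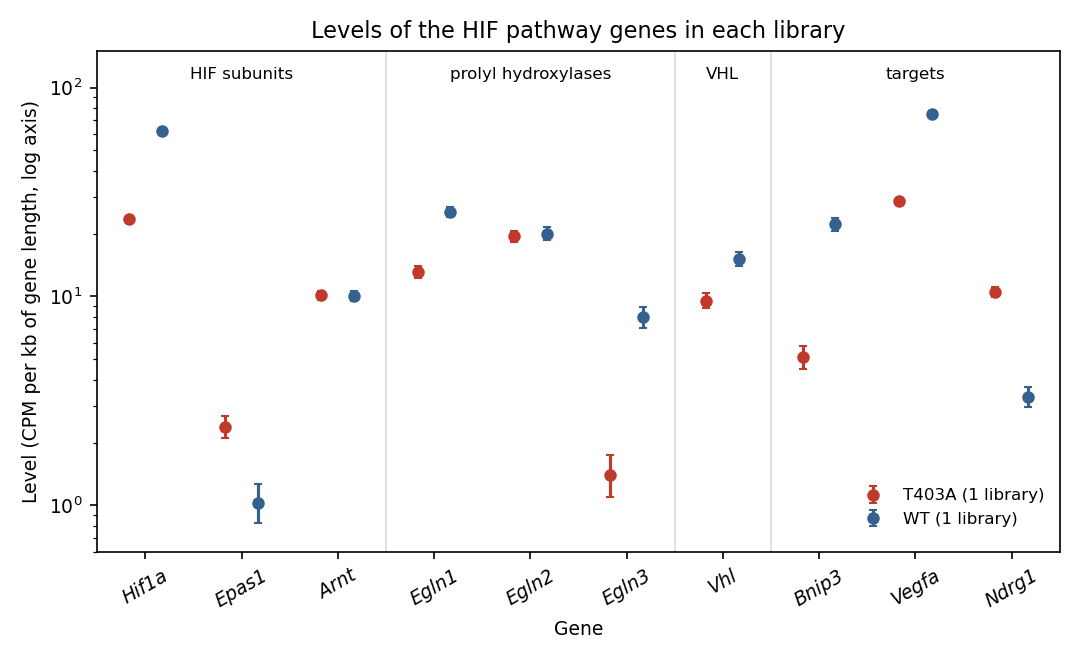
Level of each of the 10 genes in CPM per kilobase of gene length (log axis), with T403A (red) to the left of WT (blue); points are 1 library each and bars are exact 95% counting intervals. Hif1a, Egln1, Egln3, Vhl, Bnip3 and Vegfa sit lower in T403A, Epas1 and Ndrg1 sit higher, and the intervals of Arnt and of Egln2 overlap between libraries.

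The transcripts of 2 of the 3 oxygen sensors were lower in T403A, and the third was not. Egln1 (ENSMUSG00000031987, chromosome 8, 124908587 to 124949324, minus strand), the main HIF prolyl hydroxylase in most cells, had 937 counts (47.0 CPM) in T403A and 1369 counts (91.3 CPM) in WT, 1.94-fold lower (1.79 to 2.11). Egln3 (ENSMUSG00000035105, chromosome 12, 54178981 to 54203860, minus strand), a hydroxylase gene that HIF itself strongly induces, had 74 counts (3.71 CPM) in T403A and 317 counts (21.1 CPM) in WT. It was 5.69-fold lower (4.41 to 7.44), and 187 of the 11199 measured genes had a lower ratio, the fewest for any of the 10 genes. Egln2 (ENSMUSG00000058709, chromosome 7, 27158658 to 27166802, minus strand), the family member that hypoxia is not known to induce, had 1083 counts (54.3 CPM) in T403A and 840 counts (56.0 CPM) in WT, a ratio of 0.97 (0.89 to 1.06).

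The order of the sensors by level per kilobase differed between the libraries. In T403A it ran Egln2 (19.4 CPM per kilobase), Egln1 (13.1) and Egln3 (1.39). In WT it ran Egln1 (25.4), Egln2 (19.998) and Egln3 (7.94). No neighbours in either order had overlapping counting intervals. The Egln1 to Egln2 ratio within a library was 0.674 in T403A and 1.27 in WT, and the Egln3 to Egln2 ratio 0.0719 in T403A and 0.397 in WT, 5.52-fold lower in T403A (4.20 to 7.32). The summed level of the family was 33.9 CPM per kilobase in T403A and 53.3 in WT, 1.57-fold lower.

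Vhl (ENSMUSG00000033933, chromosome 6, 113623959 to 113631633, plus strand), which recognises the hydroxylated alpha subunit, had 570 counts (28.6 CPM) in T403A and 679 counts (45.3 CPM) in WT. It was 1.58-fold lower (1.41 to 1.77). With total counts in place of TMM its log2 ratio was -0.47 against -0.66, and it no longer reached 1.5-fold. The other subunits of its ligase were not called: the adaptor genes Elob (ratio 0.90) and Eloc (0.74), the cullin gene Cul2 (0.86) and the RING subunit gene Rbx1 (0.83). Their median log2 ratio was -0.23. Within each library, the Vhl to Cul2 ratio per kilobase was 0.985 in T403A and 1.35 in WT, 1.37-fold lower in T403A (1.18 to 1.60).

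Among the other HIF subunits and cofactors listed, no measured gene was called, where 24.4% of all measured genes were called either way. Hif1an, the asparaginyl hydroxylase that blocks coactivator binding, was at 51.1 CPM in T403A and 47.7 CPM in WT (ratio 1.07, 0.97 to 1.18). The coactivator genes Ep300 (ratio 0.92) and Crebbp (1.01) and the competitor gene Cited2 (1.24) were not called either, so none of the 4 measured genes of this list was. Arnt2 and Cited4 had fewer than 20 counts in sum and were not compared. Hif3a had no count in either library. A count of 0 was taken to allow up to 3 counts, a one-sided limit of 0.150 CPM in T403A and 0.200 CPM in WT, and the upper ends of the exact Poisson intervals used for levels are 0.185 CPM in T403A and 0.246 CPM in WT.

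**Figure D2:**
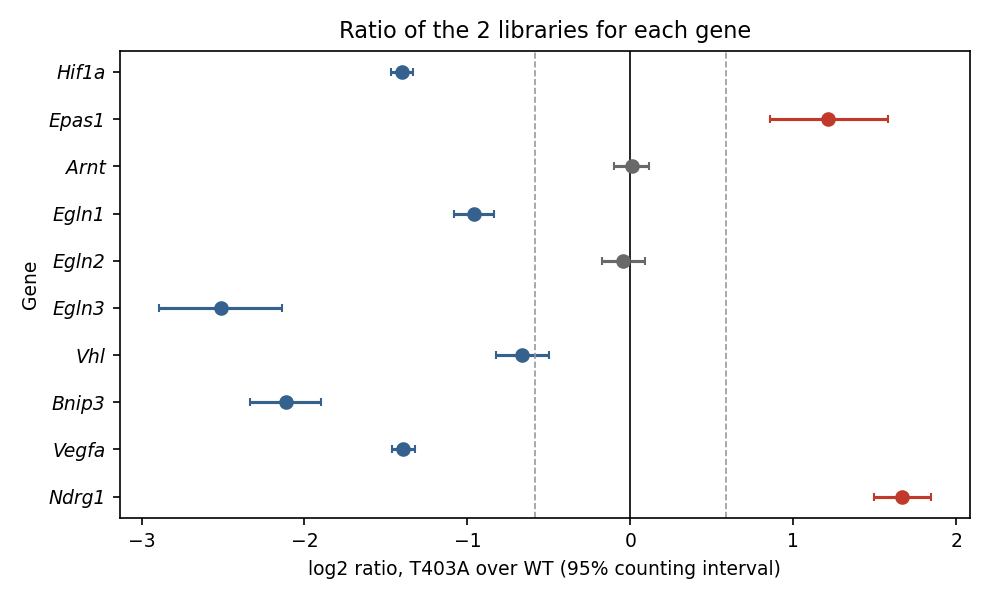
The log2 ratio of T403A over WT for each of the 10 genes, with exact 95% counting intervals (blue, called lower; red, called higher; grey, neither); dashed lines mark 1.5-fold. Egln3 and Bnip3 lie farthest to the left and Ndrg1 farthest to the right, and the interval of Vhl crosses the 1.5-fold line.

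The 3 target genes did not move together. Bnip3 (ENSMUSG00000078566, chromosome 7, 138890836 to 138909519, minus strand), a mitochondrial membrane protein that marks mitochondria for autophagy, had 231 counts (11.6 CPM) in T403A and 753 counts (50.2 CPM) in WT. It was 4.33-fold lower (3.73 to 5.04). Its relative Bnip3l, a receptor of the same kind, was at 122 CPM in T403A and 151 CPM in WT, 1.24-fold lower and not called. Per kilobase Bnip3l exceeded Bnip3 6.19-fold in T403A and 1.77-fold in WT. A limit is that annotated pseudogenes and non-coding transcripts share stretches of 90% identity or more with Bnip3 (6 such genes), so its count depends on how multiply mapped reads were treated.

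Vegfa (ENSMUSG00000023951, chromosome 17, 46016993 to 46032369, minus strand), the main angiogenic growth factor, was the most abundant of the 10 genes per kilobase in both libraries. It had 2442 counts (122 CPM) in T403A and 4828 counts (322 CPM) in WT, 2.63-fold lower (2.50 to 2.76), a ratio within the interval of that of Hif1a. Vegfb, a relative that binds the receptor FLT1 but not KDR, was at 28.0 CPM in T403A and 8.73 CPM in WT, 3.20-fold higher (2.64 to 3.91). Vegfa accordingly made up 61.5% of the VEGF ligand level per kilobase in T403A and 92.5% in WT, and Vegfb 37.5% in T403A and 6.70% in WT. The Vegfa to Vegfb ratio was 8.42-fold lower in T403A (6.90 to 10.3). Of the 7 measured other VEGF family and receptor genes, 1 was higher and 3 lower. Over all measured genes, 13.5% were higher and 10.8% lower. Among the 3 was Kdr, the main signalling receptor of VEGFA (3.51 CPM in T403A and 10.8 CPM in WT). The co-receptor genes Nrp1 (ratio 1.35) and Nrp2 (0.97) were not called.

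Ndrg1 (ENSMUSG00000005125, chromosome 15, 66929318 to 66969640, minus strand), a stress-responsive gene of the alpha/beta hydrolase fold that hypoxia induces in many cell types, went the other way. It had 1386 counts (69.5 CPM) in T403A and 328 counts (21.9 CPM) in WT, 3.18-fold higher (2.82 to 3.60), and 350 of the 11199 measured genes had a higher ratio. Set against Bnip3 within each library, it was 2.06-fold as abundant per kilobase in T403A and 0.150-fold in WT. The 3 other genes of its family were called higher as well, where 13.5% of all measured genes were. Ndrg2 was at 7.77 CPM in T403A and 0.667 CPM in WT, 11.7-fold higher on 155 and 10 counts in the same order (6.17 to 24.8). Ndrg3 was 1.72-fold higher (1.57 to 1.88) and Ndrg4 3.62-fold higher (2.09 to 6.65). Summed over the family, the level was 23.0 CPM per kilobase in T403A and 9.18 in WT, with Ndrg1 as the largest part in T403A (45.8%) and Ndrg3 in WT (59.4%).

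**Figure D3:**
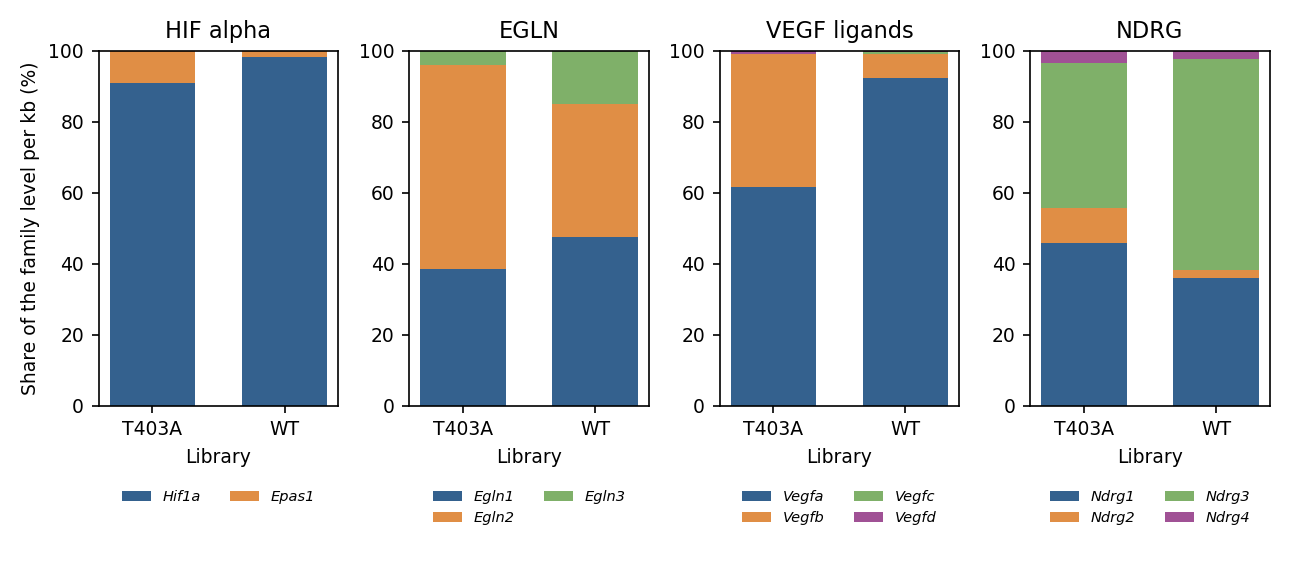
Share of each family's summed level per kilobase taken by each gene (stacked bars to 100%), with T403A on the left and WT on the right of each panel, 1 library each. Epas1, Egln2, Vegfb and Ndrg1 hold larger shares in T403A (9.20%, 57.3%, 37.5% and 45.8%) than in WT (1.63%, 37.5%, 6.70% and 36.1%).

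Among 22 measured hypoxia targets outside the glycolytic pathway, 9 were lower in T403A, none was higher and 13 met neither condition. Over all measured genes, 10.8% were lower and 13.5% higher. The median log2 ratio of the 22 targets was -0.45, against 0.01 over all measured genes. With total counts in place of TMM, 9 of the 22 were lower and 1 higher. Under that scaling 890 of all 11199 measured genes were lower and 2290 higher. Lox, a collagen-crosslinking oxidase, was at 7.12 CPM in T403A and 32.4 CPM in WT, 4.55-fold lower (3.77 to 5.52). P4ha1, a subunit of the collagen prolyl hydroxylase, was at 75.1 CPM in T403A and 248 CPM in WT, 3.30-fold lower (3.11 to 3.51), while the related P4ha2 (13.4 and 15.2 CPM in the same order) was not called. Hmox1, the haem-degrading enzyme and the most abundant of the list, was at 696 CPM in T403A and 1405 CPM in WT, 2.02-fold lower (1.97 to 2.06). Plod1, a collagen lysyl hydroxylase, was within 1.5-fold at 213 CPM in T403A and 233 CPM in WT. Others called lower included Ankrd37, Fam162a, Higd1a, Plod2 and Pdk1, between 1.98-fold and 2.57-fold. P4ha2 and these genes are named after their values were seen. Classical targets such as Kdm3a (ratio 0.93), Ddit4 (0.82) and Car9 (0.74), likewise named afterwards, were not called. Of the genes named from this list, Ankrd37, Fam162a, Higd1a, Car9, Plod2 and Lox share exon sequence with annotated genes on the opposite strand, from 0.628% of the exon bases of Lox to 22.7% of those of Ankrd37 with a single partner gene.

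Among 20 genes of glucose use, many of them known HIF1A targets, 13 were lower and 3 higher. Over all measured genes, 10.8% were lower and 13.5% higher. The median log2 ratio of the 20 genes was -0.90, against 0.01 over all measured genes. The lactate exporter gene Slc16a3 was at 56.8 CPM in T403A and 403 CPM in WT, 7.10-fold lower (6.66 to 7.57). Pfkl, a phosphofructokinase subunit, was at 65.2 CPM in T403A and 333 CPM in WT, 5.10-fold lower (4.80 to 5.43). Aldoa was 1.71-fold lower, and Pkm, at 1962 CPM in T403A and 2358 CPM in WT, was not called. The 3 higher genes, Slc2a3, Aldoc and Eno2, each have a relative in the list that was lower (Slc2a1, Aldoa and Eno1). Transcripts of Aldoa, Eno1 and Pkm resemble those of 6, 7 and 9 other annotated genes at 90% identity or more, which limits their counts as for Bnip3. The same limit holds for Gapdh (180 such genes), Ldha (13), Pgk1 (4), Pgam1 (3), Gpi1 (2), Tpi1 (2) and Pfkp (1), named here only for it. Of these, all but Pfkp were among the genes called lower, so the limit covers many of the 13.

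Of 5 macrophage genes linked to HIF, 4 were lower in T403A, where 10.8% of all measured genes were lower. Il1b, a cytokine gene that HIF1A induces, was at 4.46 CPM in T403A and 97.1 CPM in WT, 21.7-fold lower (17.5 to 27.2). Arg1, linked to HIF2A in mouse macrophages, had 3 counts in T403A and 71 in WT, 31.5-fold lower (10.3 to 156). Epas1 was higher in T403A, and a relation between these genes was not tested. Cxcr4, a chemokine receptor gene, was at 136 CPM in T403A and 143 CPM in WT and was not called. The remaining genes, Nos2 and Adora2b, were both called lower.

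**Figure D4:**
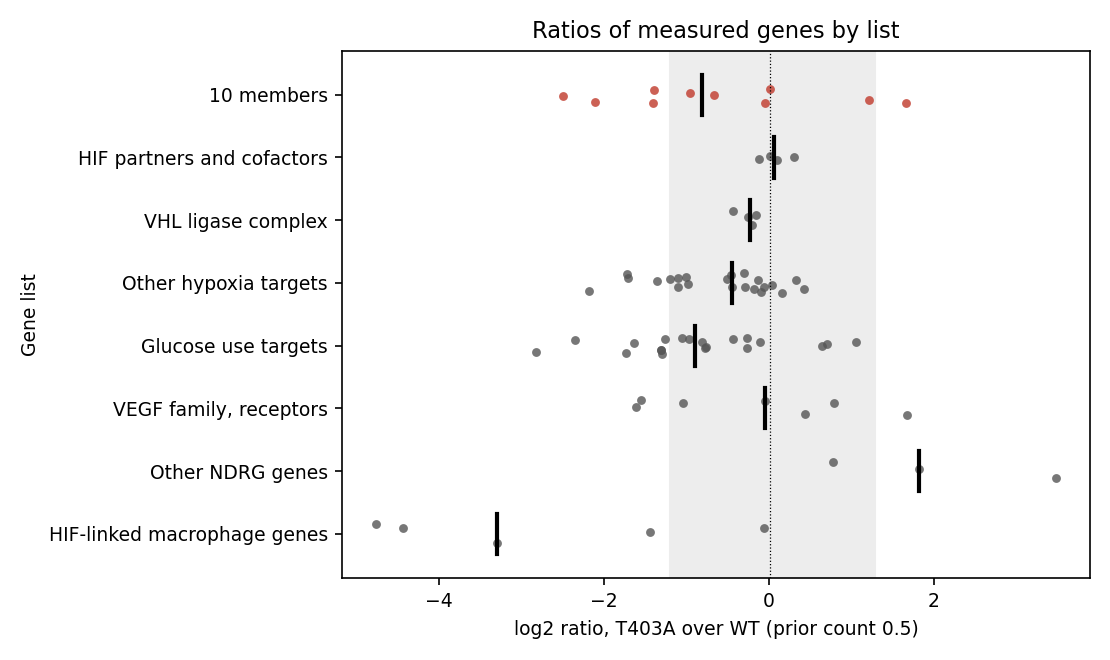
The log2 ratio of T403A over WT (prior count 0.5) for every measured gene of each list; black bars are list medians, the dotted line is the median of all measured genes and the grey band spans their 5th to 95th percentiles (-1.20 to 1.29). The 10 genes spread from -2.50 to 1.67, the glucose use genes centre on -0.90, and the other NDRG genes all lie above 0.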

How the data were processed

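Per the file headers, the deposited values are raw read counts for each Ensembl gene, beside the gene's length. The build GRCm38 and the tools HISAT2, HTSeq 0.9.1, cutadapt 1.15 and DESeq 1.30.0 are named by the submitters' processing notes. What each tool did, the annotation release and the strand setting were not given in the sources used here, so reads of antisense partners cannot be told apart (504 exon bases of Bnip3, 330 of Hif1a and 419 of Ndrg1 overlap annotated antisense genes). Total RNA (1 μg) was sequenced on an Illumina instrument, per the labels' protocols. Columns were matched to samples by title, and 21949 of 22060 identifiers were given a symbol. Positions are those of GENCODE M21 (also GRCm38), and the deposited length of all 10 genes equals its exon union.

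Counts were scaled with TMM (edgeR 4.0.16, R 4.3.3). Ratio intervals are Clopper-Pearson on both counts (scipy 1.17.1), and within-library ratios carry the exact conditional odds ratio interval. Level intervals are exact Poisson. All cover counting error only, and reads without molecular identifiers are not independent molecules. Log2 ratios of lists use a prior count of 0.5. The scoring was tested on simulated Poisson counts with known folds, drawn with the same library sizes that the scoring used. That simulation checks the calculation only, as it holds no spread between replicate libraries. Similar transcripts were found with BLAST (at least 90% identity over 200 bases). With 1 library per group no test across samples exists, and likeness of pattern across samples was not measured. The members, lists and motifs were chosen with earlier results of these data known. Outside the 10 genes, the text names from each list the 2 largest ratios and the 2 highest counts. It also names all genes of the VHL ligase, NDRG and HIF regulator lists. Nos2, Adora2b and Bnip3l are named outside this rule, and the text says where others are. Of the marker lists only the genes that bear on a result are named. Alternatives were total counts, DESeq2 1.42.0 size factors, TMM on filtered genes, a 2-fold limit, and a summed count of 0 or 100 in place of 20. Some listed genes were counted but not reported by name.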

Additional observations from a re-analysis of the deposited data

How the results depend on the processing

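No paired analysis was possible because each group has 1 library, and no replicate could be left out. With total counts in place of TMM the median log2 ratio of all measured genes moved by 0.19, the called genes were 72.0% higher ones against 55.5%, and the median log2 ratio of the 10 genes was -0.62 against -0.81. Under that scaling 890 of all 11199 measured genes were lower and 2290 higher. Of the 10 genes, 5 were lower and 2 higher, since Vhl left the called genes. The uncalled Egln2 had a log2 ratio of 0.15 against -0.04, and the uncalled Arnt 0.20 against 0.01. With DESeq2 size factors, TMM on filtered genes, no count filter or a summed count of at least 100, 6 were lower and 2 higher. With a 2-fold limit 4 were lower and 2 higher, with Egln1 and Vhl short of it. With total counts the glucose use genes were lower in 11 and higher in 3, and the VEGF family and receptor genes lower in 2 and higher in 2. With a 2-fold limit 9 glucose use genes were lower, against 13, and 1 was higher, against 3. At that limit 6.08% of all measured genes were lower and 7.21% higher. With a summed count of at least 100, 1 VEGF family or receptor gene and 2 HIF-linked macrophage genes were lower. Of all 9890 genes with such a count, 1044 were lower. Ratios of genes within a library do not depend on the scaling. Depth limits Egln3 (74 counts in T403A) and Epas1 (86 counts in WT) most among the 10 genes.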

Other observations

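Cores of the hypoxia response element (ACGTG or GCGTG) were counted in promoters of all measured genes with a window. At least 1 core was found in the first RefSeq window of 61.0% of 1186 genes called higher, of 56.8% of 943 called lower and of 65.6% of 6809 called neither. The median GC content of these windows was 60.7%, 59.0% and 61.0% in the same order. These shares are descriptions with no test, and a core in the window is not a binding site.

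In 3 pairs of related genes of glucose use, 1 member was called lower in T403A and the other higher. The glucose transporter genes were at 57.3 CPM in T403A and 112.5 CPM in WT for Slc2a1, and at 14.8 CPM in T403A and 7.13 CPM in WT for Slc2a3. The aldolase genes were at 885 CPM in T403A and 1515 CPM in WT for Aldoa, and at 76.0 CPM in T403A and 48.5 CPM in WT for Aldoc. The enolase genes were at 481 CPM in T403A and 1195 CPM in WT for Eno1, and at 9.78 CPM in T403A and 6.00 CPM in WT for Eno2. These pairs were noticed after their values were seen, and the member lower in T403A was the more abundant one in both libraries, also per kilobase.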
